A study of Mus musculus with 6 samples.

Results

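The integrin subunits described here are 8 alpha chain genes (Itga1, Itga3, Itga4, Itga5, Itga6, Itga7, Itga9 and Itgav) and 2 beta chain genes (Itgb1 and Itgb5). They were taken by symbol from a gene table of 23367 entries, and all 10 passed the filter on low counts together with the other genes that make up the 16882 tested. The table comes from an RNA-seq time course of the gastrocnemius, a calf muscle, in wild type FVB mice. The stages were embryonic day 18.5 (E18.5), postnatal day 2 (PN2), PN14, PN28 and adult at 22 weeks. All mice were of 1 strain and no treatment is named. The E18.5 library was made from RNA pooled from several embryos of both sexes and the PN2 library from several males, whereas the PN28 library, the adult library and each of the 2 PN14 libraries came from 1 male. PN14 is therefore the only stage with replicates, and the E18.5 library differs from the others in sex as well as in age.

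Integrins are receptors of the cell surface made of 1 alpha and 1 beta chain. The alpha chain largely sets which matrix protein is bound, and the short tail of the beta chain ties the receptor to the actin cytoskeleton through talin and kindlin. In muscle, the receptor of Itga7 with Itgb1 anchors the fibre to laminin in the basement membrane and is concentrated at the ends of the fibre, where it meets the tendon. The receptor of Itga5 with Itgb1 binds fibronectin and is a feature of immature muscle.

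The counts on genes ran from 125402932 to 157868359 per library, so counting error was small for every member, the lowest count being 776 fragments for Itga4 in PN14 replicate 1. The 20 most abundant genes held 16.0% of the counts at E18.5 and 36.9% in the adult. After scaling by the trimmed mean of M values (TMM), all genes tested had a median log2 fold change from E18.5 to adult of -0.05, and after scaling by library size alone of -1.08. Levels are given below as deposited FPKM, fragments per kilobase of transcript scaled to the reads of the library, which allow genes to be compared within a library but carry that shift between libraries. Fold changes and tests use TMM. All 10 muscle fibre markers examined were above 1 FPKM in some library, and their summed level was 25615 FPKM at E18.5 and 110796 FPKM in the adult. PN14 replicate 2 stood apart from PN14 replicate 1 in its Schwann cell markers (884 against 225 FPKM summed), smooth muscle and pericyte markers (334 against 179 FPKM) and proliferation markers (36.4 against 14.6 FPKM).

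The table gives 1 value per gene, which sums transcripts with different ends. These ends matter for integrins because the tail inside the cell carries the contacts of the receptor. The coding sequences below are from the mm9 mouse genome and its GENCODE annotation, read 5′ to 3′ on the strand of the gene. In alpha chains the capitals mark the 5 codons of the motif just inside the membrane that alpha chains share, and in beta chains the 4 codons of a tail motif that opens with asparagine and proline and closes with tyrosine, the type of motif bound by talin or kindlin.
Itga5: ctcGGCTTCTTCAAACGTtccctcccctac
Itga7, end of transcript 201: ctgGGATTCTTCAAGCGGgcgaagcacccc
Itga7, end of transcript 205: tgtGGCTTCTTCCGTCGGaacagtccaagc
Itgb1, end of transcript 001: actgtggtcAATCCGAAGTATgagggaaaa
Itgb1, end of transcript 201: ttcaagAATCCAAACTATggacgtaaagct
Itgb5: gcctcaAACCCCCTGTACagaaagcccatc
The Itga5 stretch lies at chr15:103175754-103175783 on the minus strand. The Itga7 stretches lie on the plus strand at chr10:128394677-128394706 and chr10:128393667-128393696, in separate exons that each hold a copy of the motif. The Itgb1 stretches lie on the plus strand at chr8:131255956-131255985 and chr8:131250919-131250948. The second of these belongs to the form of Itgb1 found in heart and skeletal muscle fibres, and the first to the common form. The Itgb5 stretch lies at chr16:33948743-33948772 on the plus strand. It holds the tail motif nearer the membrane, whereas both Itgb1 stretches hold the motif farther from it. The Itgb5 and Itgb1 motifs are therefore not at the same position in the tail. The 15 bases of the motif were shared with Itga7 (transcript 201) at 13 positions in Itga1, Itga3 and Itga6, at 12 in Itga5, at 11 in Itga4 and Itgav, and at 9 in Itga9. Levels of the separate ends were not analysed here, so each value below covers all ends of its gene. In the GENCODE annotation, Itga4, Itga7 and Itgav share exonic bases with a gene on the other strand (Cerkl, Mettl7b and Gm13684). The use of strand in the counting is not given in the sources used here, so reads in the shared bases cannot be told apart. The counts were assigned to RefSeq genes, whose exons may differ from these.

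By level, Itgb1 was first among the 10 genes in all 6 libraries. At E18.5 it was followed by Itga7, Itga5, Itgb5, Itga6, Itgav, Itga9, Itga1, Itga4 and Itga3. In the adult the order was Itgb1, Itgb5, Itga7, Itgav, Itga6, Itga5, Itga1, Itga3, Itga9 and Itga4. Neighbours in this order are told apart here only where their ratio is larger than the ratio between the PN14 replicates of either gene. By that measure Itga7 and Itga5 could not be told apart at E18.5, with a ratio of 1.08, nor Itga5 and Itgb5, with a ratio of 1.25, and neither could Itgb1 and Itgb5 in the adult, with a ratio of 1.20. The adult genes from Itgav downwards also differed from their neighbours by less than the replicate ratio. These replicate ratios are of FPKM and carry the shift between libraries, at 1.26 for Itga5 and 1.31 for Itgb1. For Itga5 and Itgb1 the replicates were closer after TMM scaling, differing by 0.07 and 0.13 on the log2 scale. Those of Itga7 and Itgb5, alike or nearly so in FPKM, then differed by -0.25 and -0.26 (replicate 2 minus replicate 1). The verdicts on close pairs were not redone with TMM and may depend on the scaling. By rank alone Itga5 went from place 3 at E18.5 to place 6 in the adult and Itgb5 from place 4 to place 2. These places are loose, because by the FPKM measure both genes had neighbours they could not be told apart from.

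**Figure D1:**
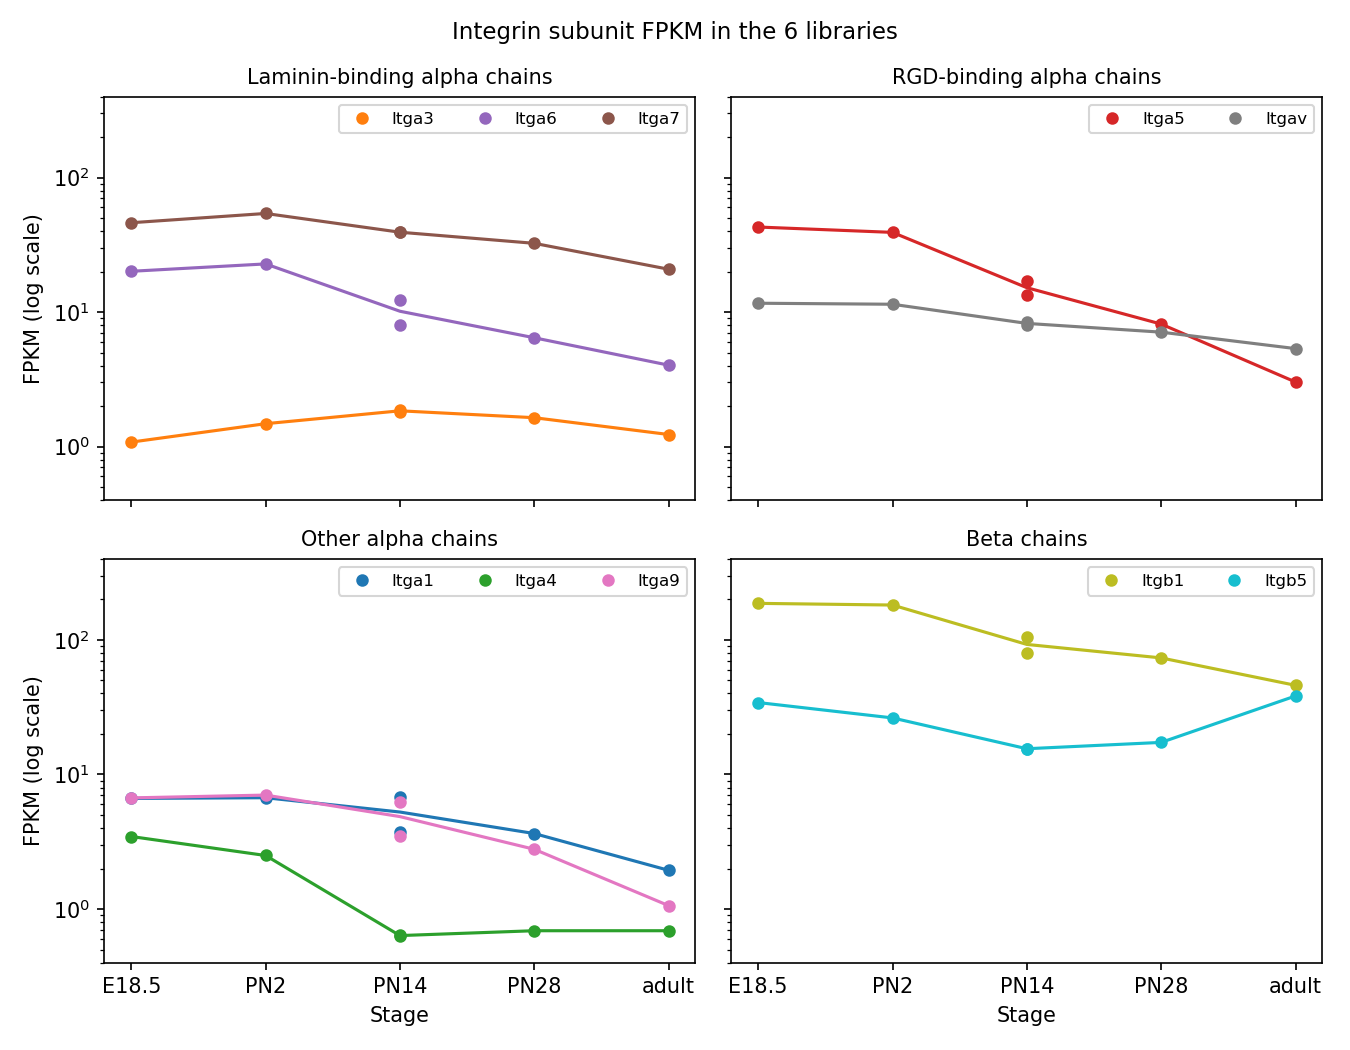
FPKM (log scale) of the integrin subunits against stage, with alpha chains grouped by ligand and the beta chains apart; each point is 1 library and the lines pass through the mean of the 2 PN14 libraries. Itga5 goes from 42.85 FPKM at E18.5 to 3.02 FPKM in the adult, and Itgb5 is the only gene here with its highest value in the adult, 38.3 FPKM.

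The laminin-binding alpha chains are Itga7, Itga6 and Itga3, and their courses differed. Itga7 (ENSMUSG00000025348; chr10:128370869-128395333, plus strand) was measured at 46.1 FPKM at E18.5, 54.0 FPKM at PN2, 39.1 and 39.35 FPKM at PN14, 32.4 FPKM at PN28 and 20.8 FPKM in the adult. The PN14 replicates nearly coincided in FPKM, but after TMM scaling replicate 2 minus replicate 1 was -0.25 on the log2 scale. The adult library was the lowest. The log2 fold change of Itga7 from E18.5 to adult was -0.12 (SE 0.268; adjusted p = 0.718, by the quasi-likelihood test of edgeR, Benjamini-Hochberg over all genes tested). With library size alone it was -1.15 (adjusted p = 0.00427 in the same edgeR test), so that the call for Itga7 depended on the scaling.

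Itga6, a laminin receptor chain found in many cells including endothelium, nerve sheath and muscle precursors, lies at chr2:71583673-71696473 on the plus strand. Its levels were 20.1 FPKM at E18.5, 22.8 FPKM at PN2, 7.95 and 12.3 FPKM at PN14, 6.44 FPKM at PN28 and 4.03 FPKM in the adult. The embryonic and newborn libraries were the highest and the adult the lowest. From E18.5 to adult Itga6 fell by 1.29 on the log2 scale (SE 0.260; adjusted p = 0.00876, edgeR). Its change from PN2 to PN14, -0.53 (SE 0.217), did not pass (adjusted p = 0.109, edgeR), but did with library size alone, at -1.17 (adjusted p = 0.000745).

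Itga3, the laminin receptor chain best known from epithelia, lies at chr11:94905788-94938115 on the minus strand and was a minor member. It was measured at 1.08 FPKM at E18.5, 1.48 FPKM at PN2, 1.81 and 1.88 FPKM at PN14, 1.64 FPKM at PN28 and 1.23 FPKM in the adult. In FPKM the adult library lay between those of E18.5 and PN2. Against the bulk of genes Itga3 rose 2.32-fold from E18.5 to adult, a log2 fold change of 1.22 (SE 0.268; adjusted p = 0.0119, edgeR), a call that was lost with library size alone, at 0.19 (adjusted p = 0.774). With PN2 in place of E18.5 the call was lost as well, at 0.76 (adjusted p = 0.0564, edgeR). Between PN2 and PN14 its log2 fold change was 0.98 (SE 0.238; adjusted p = 0.0289, edgeR), just under the 2-fold limit.

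Itga5 and Itgav are the alpha chains that recognise the arginine-glycine-aspartate sequence, Itga5 in fibronectin and Itgav in vitronectin and other proteins. Itga5 (ENSMUSG00000000555; chr15:103174720-103197194, minus strand) showed the largest change of the 10 genes. Its levels were 42.85 FPKM at E18.5, 39.1 FPKM at PN2, 13.4 and 16.9 FPKM at PN14, 8.14 FPKM at PN28 and 3.02 FPKM in the adult. Each later stage was lower than the one before it, and the PN14 replicates were closer to each other than to either neighbouring stage. From E18.5 to adult Itga5 was 6.98-fold lower, a log2 fold change of -2.80 (SE 0.225; adjusted p = 0.00123, edgeR), and it kept this direction with library size alone, at -3.83.

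The single steps of Itga5 were smaller. Its log2 fold change was -0.13 from E18.5 to PN2 (SE 0.210) and -0.72 from PN2 to PN14 (SE 0.177; adjusted p = 0.0307, edgeR), the latter under the 2-fold limit. From PN14 to PN28 it was -0.66 (SE 0.187; adjusted p = 0.517, edgeR). From PN28 to adult it was -1.29 (SE 0.214; adjusted p = 0.0637, edgeR), a step that DESeq2 called (adjusted p = 0.00186). None of these steps passed both limits in edgeR with TMM. With library size alone, edgeR called Itga5 from PN2 to PN14 (-1.36, adjusted p = 5.07e-05) and from PN28 to adult (-1.43, adjusted p = 0.00339), and with no filter on low counts it called the latter (adjusted p = 0.0172).

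Itgav, which pairs with Itgb5, Itgb1 and several other beta chains, lies at chr2:83564554-83647073 on the plus strand. Its levels were 11.6 FPKM at E18.5, 11.4 FPKM at PN2, 8.0 and 8.47 FPKM at PN14, 7.09 FPKM at PN28 and 5.35 FPKM in the adult. Like Itga7 it followed the bulk of genes, with a log2 fold change from E18.5 to adult of -0.10 (SE 0.213; adjusted p = 0.724, edgeR), but with library size alone it was called at -1.12 (adjusted p = 0.00671). Its direction from PN2 to PN14 turned from 0.19 with TMM to -0.47 with library size alone.

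The remaining alpha chains are the collagen receptor chain Itga1 and the related chains Itga4 and Itga9, which bind vascular cell adhesion molecule 1, tenascin, osteopontin and spliced fibronectin. Itga4 (chr2:79095583-79173280, plus strand), best known from leukocytes and from the contact between fusing myoblasts, was measured at 3.46 FPKM at E18.5, 2.50 FPKM at PN2, 0.63 and 0.64 FPKM at PN14, and 0.69 FPKM both at PN28 and in the adult. The first 2 libraries were high and the last 4 low, with no overlap. Itga4 was the single member called between PN2 and PN14, where it fell by 1.31 on the log2 scale (SE 0.199; adjusted p = 0.00913, edgeR). It also fell by 1.29 from E18.5 to adult (SE 0.241; adjusted p = 0.00682, edgeR). With PN2 in place of E18.5, its log2 fold change to the adult was -0.82 (adjusted p = 0.0331, edgeR), under the 2-fold limit.

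Itga9 (chr9:118515808-118810121, plus strand) is a chain of lymphatic vessels and several other tissues. It was measured at 6.70 FPKM at E18.5, 7.03 FPKM at PN2, 3.52 and 6.21 FPKM at PN14, 2.78 FPKM at PN28 and 1.06 FPKM in the adult. PN14 replicate 2 was close to the newborn level, whereas replicate 1 was nearer to PN28. Itga9 fell by 1.69 on the log2 scale from E18.5 to adult (SE 0.305; adjusted p = 0.00609, edgeR). The step from PN2 to PN14 was -0.08 (SE 0.255), and -0.71 with library size alone (adjusted p = 0.0781, edgeR). Its sign depended on the replicate kept, at 0.16 without replicate 1 and -0.38 without replicate 2. From PN28 to adult the step was -1.23 (SE 0.302, adjusted p = 0.124, edgeR) and was called by DESeq2 (adjusted p = 0.0267). The ratio of Itga9 to Itga4 in FPKM was 1.94 at E18.5, 2.81 at PN2, 5.59 and 9.70 at PN14, then 4.03 at PN28 and 1.54 in the adult, so it was highest at PN14 and similar at both ends of the series.

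Itga1 (chr13:115748287-115892172, minus strand) was measured at 6.64 FPKM at E18.5, 6.72 FPKM at PN2, 3.71 and 6.81 FPKM at PN14, 3.64 FPKM at PN28 and 1.94 FPKM in the adult. The PN14 replicates spanned most of the range seen before the adult stage. Its log2 fold change from E18.5 to adult was -0.75 (SE 0.319; adjusted p = 0.0927, edgeR) and did not pass, but with library size alone it was -1.77 (adjusted p = 7.91e-05). After TMM scaling, Itga1 was higher in PN14 replicate 2 than in replicate 1 by 0.61 on the log2 scale, Itga9 by 0.55 and Itga6 by 0.38. The endothelial markers, which differ in the same direction, summed to 315 FPKM in replicate 2 and 213 FPKM in replicate 1, as did the Schwann cell and pericyte markers given above. Their part in these replicate differences was not tested.

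Itgb1 (ENSMUSG00000025809; chr8:131209554-131257100, plus strand) can pair with each of the 8 alpha chains examined. It was measured at 187 FPKM at E18.5, 182 FPKM at PN2, 80.2 and 105 FPKM at PN14, 73.5 FPKM at PN28 and 46.0 FPKM in the adult. Its FPKM was 4.07-fold lower in the adult than at E18.5, beside 2.22-fold for Itga7 and 14.2-fold for Itga5. The log2 fold change of Itgb1 was -0.998 (SE 0.352; adjusted p = 0.0543, edgeR) and lay at the edge of both limits. DESeq2 called it at -1.01 (adjusted p = 0.00320), and library size alone at -2.02 (adjusted p = 6.79e-07).

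Itgb5, the beta chain that pairs with Itgav to bind vitronectin, lies at chr16:33829751-33949239 on the plus strand. Its levels were 34.3 FPKM at E18.5, 26.3 FPKM at PN2, 15.54 FPKM in both PN14 libraries, 17.3 FPKM at PN28 and 38.3 FPKM in the adult. It was the only one of the 10 genes whose FPKM was lowest at PN14 and highest in the adult. Against the bulk of genes Itgb5 rose 2.28-fold from E18.5 to adult, a log2 fold change of 1.19 (SE 0.239; adjusted p = 0.00880, edgeR), whereas with library size alone the value was 0.16 (adjusted p = 0.715). The last step, PN28 to adult, was 1.28 on the log2 scale (SE 0.240; adjusted p = 0.0760, edgeR). That step kept its sign with library size alone, at 1.15 (adjusted p = 0.0352), and was called by DESeq2 (adjusted p = 0.00368).

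Counted over the comparisons, 6 of 10 members were called from E18.5 to adult at an adjusted p under 0.05 in edgeR and at least a 2-fold change, beside 44.9% of all genes tested. Of these, 4 fell (Itga4, Itga5, Itga6 and Itga9), beside 23.6% of all genes, and 2 rose (Itga3 and Itgb5), beside 21.4%. With library size alone 8 members were called, all lower in the adult, beside 53.6% of all genes. The members' median log2 fold change was -0.87 beside -0.05 over all genes. Between PN2 and PN14, 1 of 10 was called beside 23.0% of all genes, namely Itga4, which fell beside 11.2% falling and 11.8% rising over all genes. For that step 3 members passed without the 2-fold limit, beside 31.5% of all genes, and 3 with library size alone, beside 34.5%. With PN2 in place of E18.5 as the start, an alternative added after seeing the data, 4 members were called to the adult, beside 40.0% of all genes.

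The other steps gave 0 called members in edgeR. From E18.5 to PN2, 0.0296% of all genes were called, and 0 members had an unadjusted p under 0.05, beside 6.64% of all genes. DESeq2 called 0 members, beside 1.10% of all genes. From PN14 to PN28, 0.0178% of all genes were called, and 1 member had an unadjusted p under 0.05, beside 8.41%. DESeq2 called 0 members, beside 0.832%. From PN28 to adult, 0.521% of all genes were called, and 3 members had an unadjusted p under 0.05, beside 18.3%. DESeq2 called the same 3, Itga5, Itga9 and Itgb5, beside 5.73%. Library size alone also called 3 there, beside 5.14% of all genes. In this last interval 3 of 10 members differed at least 2-fold without a test, beside 10.2% of the 12859 genes with at least 1 CPM in either stage, and the members' median log2 fold change was -0.52 beside -0.01 for all genes. The tests rest on the PN14 pair for their 1 residual degree of freedom, and the other stages are assumed to vary as PN14 did (common biological coefficient of variation 0.188).

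**Figure D2:**
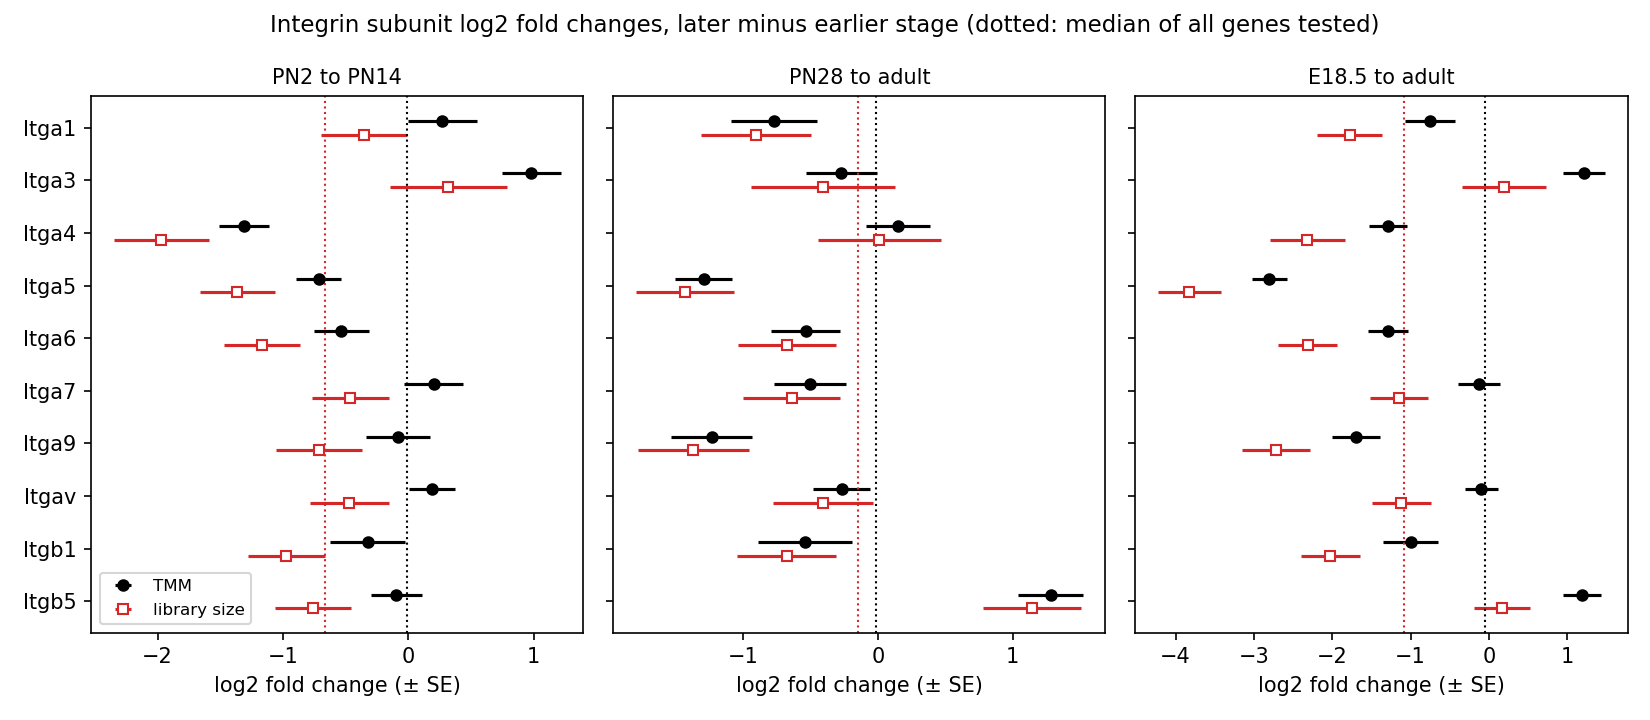
Log2 fold changes (later minus earlier stage, bars ± SE) of the 10 subunits in 3 comparisons, with TMM (black circles) and library size alone (red squares); dotted lines are the medians of all genes tested. From E18.5 to adult Itga7 and Itgav lie near the all-gene median under both scalings, Itga5 lies farthest below it, and Itga3 and Itgb5 lie above it.

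Ratios of FPKM within a library do not depend on the scaling between libraries and show how the make-up of the receptors' mRNA changed. Of the summed alpha chain FPKM, Itga7 made up 33.3% at E18.5, 37.2% at PN2, a mean of 46.3% ± 5.32 in the PN14 pair (SD, n = 2), then 51.6% at PN28 and 54.6% in the adult. Itga5 made up 30.9% at E18.5, 26.9% at PN2, a mean of 17.7% ± 0.763 in the PN14 pair (SD, n = 2), then 12.95% at PN28 and 7.92% in the adult. Itga7 and Itga5 thus went from near parity to a large excess of Itga7. The ratio of Itga7 to Itga5 was 1.08 at E18.5, 1.38 at PN2, 2.91 and 2.33 at PN14, then 3.98 at PN28 and 6.89 in the adult, with no PN14 value overlapping another stage. Itgav made up 14.03% in the adult against 8.39% at E18.5. By the replicate ratio in FPKM, it could not be told apart in the adult from Itga6, at 10.6%.

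**Figure D3:**
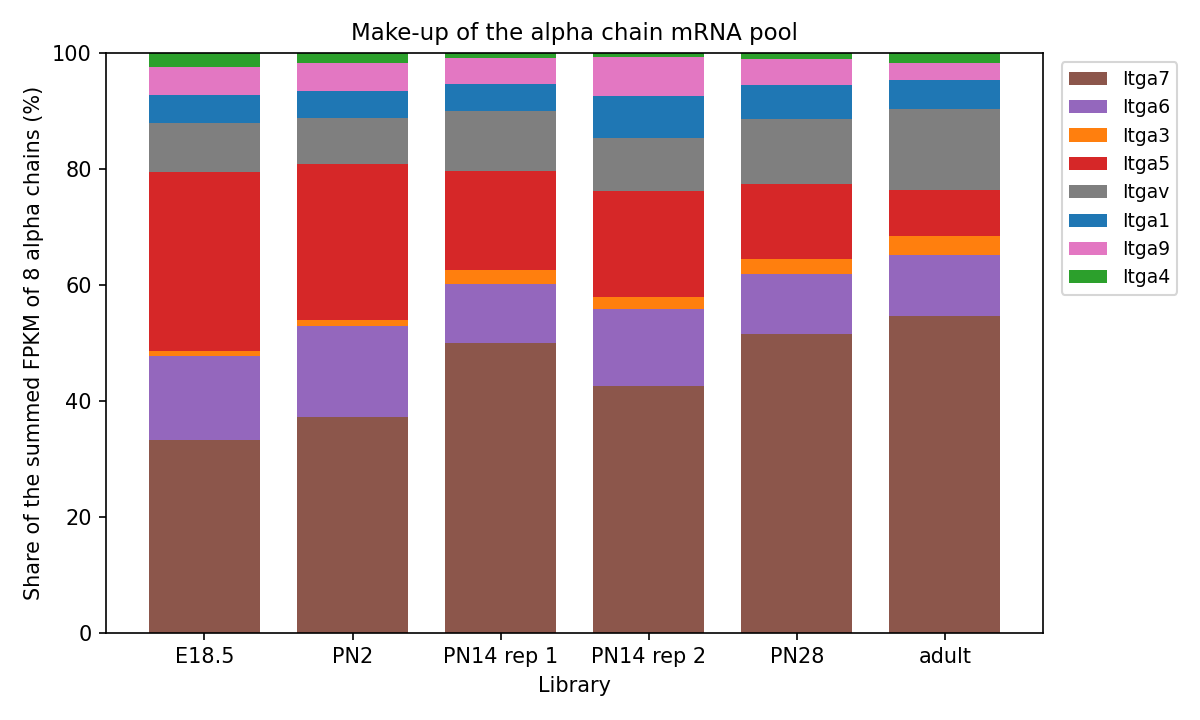
Stacked bars of each alpha chain's share (%) of the summed FPKM of the 8 alpha chains in each of the 6 libraries. The Itga7 segment goes from 33.3% at E18.5 to 54.6% in the adult and the Itga5 segment from 30.9% to 7.92%.

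The balance of the beta chains also differed in the adult library. The ratio of Itgb5 to Itgb1 was 0.183 at E18.5, 0.145 at PN2, 0.194 and 0.148 at PN14, then 0.236 at PN28 and 0.834 in the adult. The ratio of Itgb5 to its partner Itgav was 2.95 at E18.5, 2.30 at PN2, 1.94 and 1.83 at PN14, then 2.44 at PN28 and 7.17 in the adult. Both ratios were far higher in the single adult library than in any other. The ratio of Itga7 to Itgb1 was 0.247 at E18.5 and 0.452 in the adult, the latter within the range of the PN14 replicates, 0.375 and 0.487. Summed over members, alpha chains were 0.626 of beta chains at E18.5, 0.792 ± 0.0339 at PN14 (SD, n = 2) and 0.452 in the adult.

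**Figure D4:**
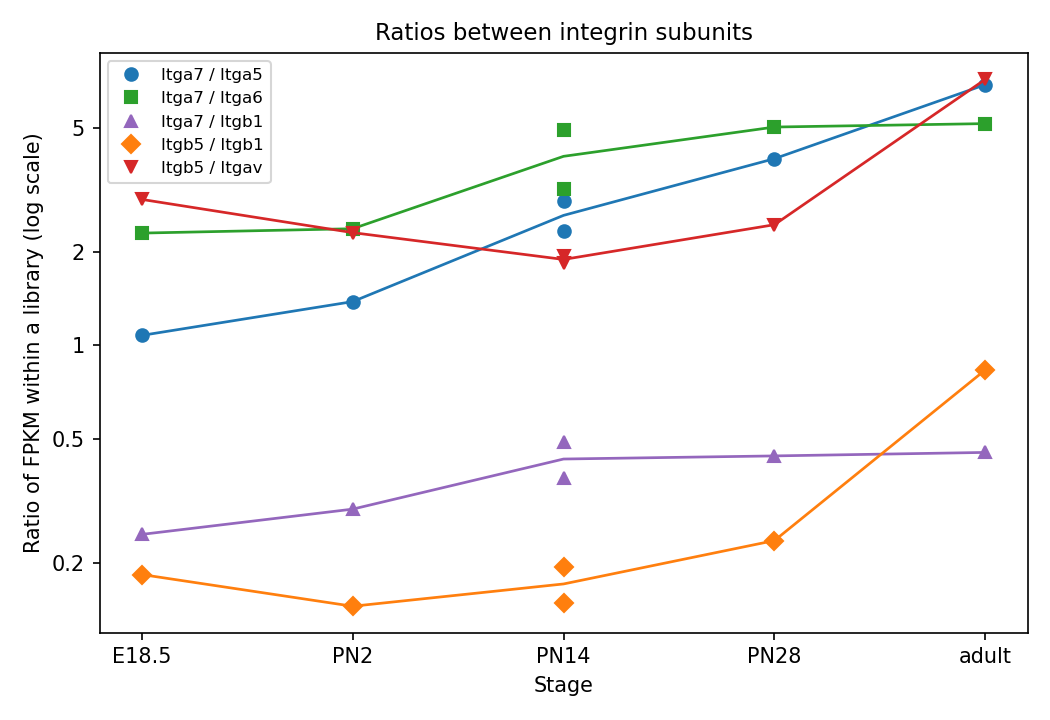
Ratios of FPKM between pairs of integrin subunits (log scale) against stage; points are libraries and lines pass through the PN14 mean. Itga7 over Itga5 goes from 1.08 to 6.89, while Itgb5 over Itgav and Itgb5 over Itgb1 are highest in the adult library, at 7.17 and 0.834.

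Across the 6 libraries, some members had like courses, and 8 of the 45 pairs correlated above 0.9. The Pearson correlation of log2 TMM-scaled CPM (counts as a share of the library total) was 0.985 between Itga5 and Itgb1, 0.967 between Itga6 and Itgb1 and 0.919 between Itga7 and Itgav. Itga3 ran against Itga4, at -0.957, and Itgb5 against Itga9, at -0.947. Itga9 was above 0.9 with Itga1, Itga5, Itga6 and Itgb1. These correlations are descriptions over 6 libraries that share age, depth and cell make-up.

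The gastrocnemius libraries hold many cell types, and in bulk RNA fewer cells of a type and less RNA per cell cannot be told apart. The summed level of the 7 fibroblast markers was 2577 FPKM at E18.5 and 435 FPKM in the adult. The 4 satellite cell markers, of the stem cells of muscle, summed to 60.2 and 7.11 FPKM and the 7 proliferation markers to 177 and 0.58 FPKM. The 7 endothelial markers summed to 215 and 83.9 FPKM, and the 6 smooth muscle and pericyte markers to 326 and 74.5 FPKM. The 6 leukocyte markers in the table summed to 27.9 and 8.60 FPKM, those of T and B cells being near 0. The 6 Schwann cell markers summed to 56.8 and 165 FPKM. These sums are FPKM and carry the shift between libraries given above. From E18.5 to adult, 23.6% of all genes fell and 21.4% rose in edgeR after TMM scaling. Beside these shares, 5 of 7 fibroblast, 3 of 4 satellite cell and 7 of 7 proliferation markers fell. The median log2 fold changes of these lists were -1.63, -2.50 and -7.34. In the same test 0 of 7 endothelial markers were called (median -0.42), 1 of 6 leukocyte markers fell (median -1.10), 1 smooth muscle and pericyte marker rose and 3 fell, and 2 of 6 Schwann cell markers rose. The fall of Itga4, Itga5, Itga6 and Itga9 thus stood beside falls of fibroblast, satellite cell and proliferation markers, whose part in it was not tested. Of the 6 fat cell markers, a list added after the values were seen, 5 rose from E18.5 to adult, beside 21.4% of all genes. The list's median log2 fold change was 5.39. Adipoq, for example, had 1.06 FPKM at E18.5, 17.5 FPKM at PN28 and 12.8 FPKM in the adult, and Cfd had 0.09, 74.3 and 43.6 FPKM. Fabp4, which made up most of the list's summed level, had 372 FPKM at E18.5 and 303 FPKM in the adult and was not called. Itgb5 was at 34.3 FPKM at E18.5, 26.3 at PN2, 15.54 in both PN14 libraries, 17.3 at PN28 and 38.3 in the adult. From PN28 to adult the log2 fold change of Itgb5 was 1.28, beside a median of -0.26 for the fat cell markers. In that step 0 of the 6 markers were called, beside 0.521% of all genes. The part of fat cell markers in the rise of Itgb5 was not tested.

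The table also held 16 other integrin subunit genes, all tested, most of them low. Of the 16, 1 rose and 5 fell from PN2 to PN14, beside 11.8% and 11.2% of all genes. Between E18.5 and adult 3 rose and 5 fell, or 50% in all, beside 44.9% of all genes. Itgb3, the platelet and endothelial partner of Itgav and Itga2b, had 6.86 FPKM at E18.5, 7.24 FPKM at PN2, 0.77 and 1.47 FPKM at PN14, 0.60 FPKM at PN28 and 0.26 FPKM in the adult. It fell by 2.06 on the log2 scale from PN2 to PN14 (adjusted p = 0.00763, edgeR) and fell by 3.69 from E18.5 to adult (adjusted p = 0.00160, edgeR). Itgb5 and Itgb3, both partners of Itgav, thus moved in opposite directions between E18.5 and adult under TMM, while with library size alone only the fall of Itgb3, -4.72, was called.

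Other subunits above 1 FPKM in some library showed a mix of courses. From E18.5 to adult the collagen receptor chain Itga2 went from 3.80 to 0.20 FPKM and fell by 3.19, the leukocyte chain Itgal from 1.81 to 0.16 FPKM and fell by 2.50, the collagen receptor chain Itga10 from 2.04 to 0.24 FPKM and fell by 2.06, and Itga8, a nephronectin receptor chain, from 3.66 to 0.47 FPKM and fell by 1.95 on the log2 scale. Itgb4, the partner of Itga6 in epithelia and nerve sheath, had 1.86 and 2.74 FPKM and rose by 1.58, and Itgb6, a partner of Itgav, had 4.49 and 5.42 FPKM and rose by 1.297. Both of these rises were lost with library size alone, at 0.56 and 0.27. Itgb7 also rose, but had at most 0.57 FPKM. Of those not called over that span, the collagen receptor chain Itga11 had 1.99 and 1.84 FPKM, the platelet chain Itga2b 1.05 and 0.30 FPKM, the leukocyte chains Itgam 1.13 and 0.54 FPKM and Itgb2 1.13 and 0.87 FPKM, and Itgb8 1.53 and 0.37 FPKM. Between PN2 and PN14, Itgal (-2.20), Itgb3, Itga2 (-1.48), Itga10 (-1.08) and Itgam (-1.05) fell, and Itgae, at 0.15 FPKM or less, was the 1 that rose.

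Inside the cell, 33 of the 36 gene symbols listed for adhesion partners were tested. The list holds the talins, kindlins and the kinase complex that joins the beta tail to actin. Of the 33, 2 rose and 0 fell from PN2 to PN14, or 6.06% in all, beside 23.0% of all genes. Between E18.5 and adult 5 rose and 11 fell, or 48.5% in all, beside 44.9% of all genes. Lims2 encodes the second of the adaptor proteins that bind integrin-linked kinase. It was at 4.34 FPKM at E18.5, 6.07 FPKM at PN2, 23.6 and 27.1 FPKM at PN14, 17.05 FPKM at PN28 and 12.4 FPKM in the adult. It rose by 2.72 on the log2 scale from PN2 to PN14 (adjusted p = 0.00301, edgeR) and by 2.54 from E18.5 to adult (adjusted p = 0.00123, edgeR), in each case also with library size alone. The ratio of Lims2 to its paralog Lims1 in FPKM was 0.125 at E18.5, 0.136 at PN2, 1.14 and 0.955 at PN14, then 1.23 at PN28 and 1.15 in the adult, so the 2 paralogs reached a like level by PN14.

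Cib2, a calcium-binding protein reported to bind integrin alpha tails, was at 6.11 FPKM at E18.5, 9.23 FPKM at PN2, 117 and 50.5 FPKM at PN14, 185 FPKM at PN28 and 159 FPKM in the adult. The PN14 replicates differed more than for any integrin member but both lay above the earlier stages. Cib2 rose by 3.90 from PN2 to PN14 (adjusted p = 0.0125, edgeR) and by 5.73 from E18.5 to adult on the log2 scale (adjusted p = 0.00266, edgeR). Over the longer span the vinculin-binding adaptor Sorbs3 rose by 1.69 and Itgb1bp1, which binds the Itgb1 tail and competes with talin, by 1.57. Neither of these 2 rises was called with library size alone.

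Among the partners that fell from E18.5 to adult, the focal adhesion adaptor Tgfb1i1 went from 23.6 to 1.60 FPKM and fell by 2.86 on the log2 scale (adjusted p = 0.00123, edgeR). Zyx, which recruits actin regulators to adhesions, went from 88.0 to 8.33 FPKM and fell by 2.37 (adjusted p = 0.00132, edgeR). Ilk, the kinase-like scaffold on the Itgb1 tail, went from 194 to 23.95 FPKM and fell by 1.98 (adjusted p = 0.00235, edgeR). Fermt3, the kindlin of blood cells, went from 3.47 to 0.44 FPKM and fell by 1.97 (adjusted p = 0.00733, edgeR). Itgb1bp2, the muscle protein melusin that binds the Itgb1 tail, falls outside the rule for named genes and was chosen after its values were seen. It was at 523 FPKM at E18.5, 577 FPKM at PN2, 341 and 456 FPKM at PN14, 201 FPKM at PN28 and 92.4 FPKM in the adult, above Itgb1 in every library, and fell by 1.48 on the log2 scale (adjusted p = 0.0161, edgeR).

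The ligands of these receptors are shown beside them because the alpha chain sets what is bound. Fibronectin (Fn1) was at 206 FPKM at E18.5 and 11.45 FPKM in the adult, and vitronectin (Vtn) at 3.65 and 9.27 FPKM. The laminin chains Lamb1 and Lamb2 were at 99.2 and 40.8 FPKM at E18.5 and at 5.66 and 28.6 FPKM in the adult. This puts Lamb1 above Itga7 before birth and below it in the adult. The laminin chains Lama2 and Lamc1 were at 26.2 and 92.9 FPKM at E18.5 and at 6.78 and 16.4 FPKM in the adult. Fn1, Lamb1 and Lamb2 were chosen after their values were seen.

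**Figure D5:**
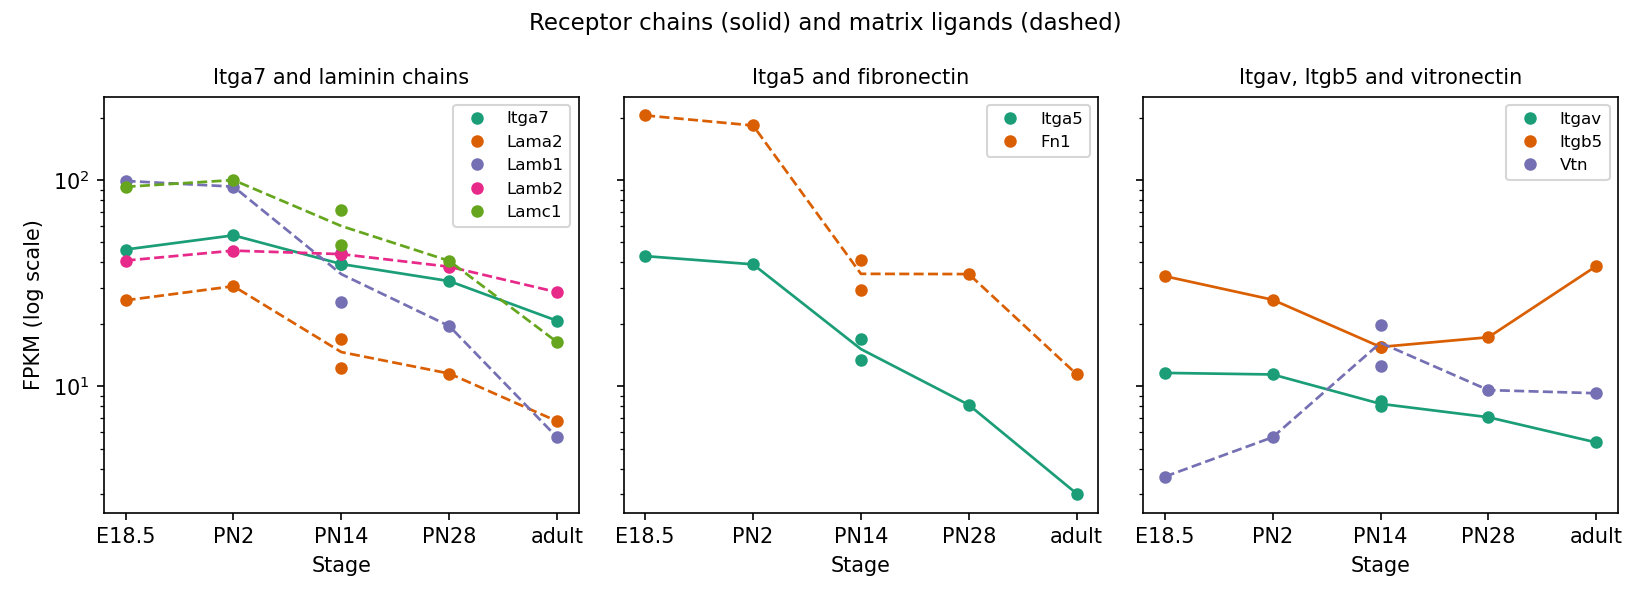
FPKM (log scale) of receptor chains (solid lines) and of matrix ligands (dashed lines) against stage; points are libraries and lines pass through the PN14 mean. Fn1 and Itga5 are both lowest in the adult, Lamb1 goes from 99.2 to 5.66 FPKM while Lamb2 ends at 28.6 FPKM, and Vtn is highest at PN14.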

How the data were processed

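Polyadenylated RNA of 6 gastrocnemius libraries was sequenced. Per the submitters' processing notes and the study's methods, the authors aligned paired reads to mm9 with TopHat2 2.0.5. Fragments were then assigned to RefSeq genes by RSEM. They deposited expected counts, all of them whole numbers in the table, and FPKM values per gene and library. The FPKM values were used as deposited, with no further scaling between libraries.

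Expected counts were rounded and tested with edgeR 4.0.16 in R 4.3.3 (filterByExpr by stage, TMM, quasi-likelihood fit over all 6 libraries and 5 stages). P-values were adjusted by the Benjamini-Hochberg method over 16882 genes. Calls required an adjusted p under 0.05 together with an absolute log2 fold change of at least 1. DESeq2 1.42.0 and the other scalings, filters and limits were alternatives. The script was checked on simulated counts. The spread behind the p-values comes from the PN14 libraries, from 2 mice. The edgeR fit draws the spread of each gene towards that of the other genes, so a p-value does not rest on the gene's own spread alone.

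The members and gene lists were chosen with earlier results of these data known. The list of fat cell markers and the use of PN2 in place of E18.5 were added after the values were seen. All members are named. Of each other list, up to 4 called genes per direction with the largest change, at 1 FPKM or more in some library, are named from PN2 to PN14 and from E18.5 to adult, with every other integrin subunit at 1 FPKM or more in some library. For Itga7, Itga5 and Itgb1, the 3 genes with the highest Pearson r of log2(TMM-scaled CPM + 0.1) over 6 libraries are named, among tested genes with a mean of at least 10 CPM. Sequences and coordinates are from the mm9 genome with GENCODE annotation, read in Python 3.11.15.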

Additional observations from a re-analysis of the deposited data

How the results depend on the processing

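From PN2 to PN14, 3 of 10 members were called with library size alone, beside 34.5% of all genes, against 1 beside 23.0%. Without the 2-fold limit 3 were called, beside 31.5%. From PN28 to adult, 3 were called with library size alone, beside 5.14% of all genes, against 0 beside 0.521%. The DESeq2 Wald test called 3, beside 5.73%. With no filter on low counts 3 were called, and the share of all genes under that setting is not given here. Of the adhesion partners, 12 of 33 were called from PN2 to PN14 with library size alone, beside 34.5% of all genes, against 2. Without the fold limit 6 were called, beside 31.5%. Of the 25 ligands, 19 were called over the same step with library size alone, beside 34.5%, against 8 beside 23.0%. Counted at 2-fold without a test from PN2 to PN14, 1 member differed with both PN14 libraries and 3 with library size alone. When a PN14 replicate was left out, 1 to 2 differed, the count of 2 being without replicate 2. The share of all genes at that limit is not given here for this step, so these counts are not read as particular to integrins. Library size alone reversed the log2 fold changes of Itga1 (-0.35), Itga7 (-0.46) and Itgav (-0.47) from PN2 to PN14 and of Itga3 (-0.17) and Itgav (-0.22) from PN14 to PN28. By construction it adds the all-gene shift to each value.

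No paired analysis was possible because only PN14 has replicate numbers. Without a PN14 replicate no residual degree of freedom is left, so those values have no test. DESeq2 size factors and the mean of at least 1 CPM left the count of members called within 1.5 times of the reported count in every comparison. Each stage but PN14 rests on 1 library, so a value particular to that library and a value of that stage cannot be told apart.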

Other observations

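Of the 27 gene symbols listed for extracellular ligands of integrins, 26 were found and 25 were tested. From PN2 to PN14, 1 rose and 7 fell, beside 11.8% and 11.2% of all genes, and from E18.5 to adult 1 rose and 19 fell, beside 21.4% and 23.6%. The list's median log2 fold change from E18.5 to adult was -2.77, beside -0.87 for the integrin members and -0.05 for all genes. Vtn, vitronectin, the ligand of the receptor of Itgav with Itgb5, was the 1 ligand that rose. It was at 3.65 FPKM at E18.5, 5.67 FPKM at PN2, 12.6 and 19.95 FPKM at PN14, 9.60 FPKM at PN28 and 9.27 FPKM in the adult, and rose by 2.16 on the log2 scale from PN2 to PN14 (adjusted p = 0.00557, edgeR) and by 2.37 from E18.5 to adult (adjusted p = 0.00188, edgeR). Both rises were called with library size alone as well.

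Among ligands at 1 FPKM or more in some library, the largest falls between PN2 and PN14 were those of Spp1 (osteopontin, -6.42), Postn (periostin, -2.91), Tnc (tenascin C, -2.86) and Npnt (nephronectin, -2.38). Spp1 went from 35.7 FPKM at PN2 to 0.31 and 0.22 FPKM at PN14 and stood at 2.61 FPKM in the adult. From E18.5 to adult, under the same limit, they were those of Postn (-7.16), the collagen chain Col1a1 (-4.45), Tnc (-4.26) and the elastic fibre protein Emilin1 (-3.94). Tnc and Spp1, ligands of Itga9, had thus fallen by PN14, where Itga9 itself had a log2 fold change of -0.08 that did not pass.

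The following ligands were chosen after their values were seen, as partners of the main receptors. Fn1, fibronectin, was at 206 FPKM at E18.5, 184 FPKM at PN2, 29.4 and 40.9 FPKM at PN14, 35.1 FPKM at PN28 and 11.45 FPKM in the adult, and fell by 3.20 on the log2 scale (adjusted p = 0.00245, edgeR), beside -2.80 for its receptor chain Itga5. Lamb1, a laminin beta chain, was at 99.2 FPKM at E18.5 and 5.66 FPKM in the adult and fell by 3.11 (adjusted p = 0.00216, edgeR). Lamb2, the laminin beta chain of the synapse and of mature basement membrane, was at 40.8 and 28.6 FPKM with a log2 fold change of 0.52, which did not pass (adjusted p = 0.193, edgeR). The ratio of Lamb2 to Lamb1 was 0.411 at E18.5, 0.489 at PN2, 1.71 and 0.987 at PN14, then 1.94 at PN28 and 5.06 in the adult. The summed fibroblast markers were 5.92-fold lower in FPKM in the adult than at E18.5, and their part in the ligand values was not tested.

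Among 8839 genes compared, those with a course over the 6 libraries most like Itga5 were Gjc1, a gap junction gene (r = 0.997), Tmem132a (0.996) and Atp8b2 (0.996). Most like Itga7 were Tmcc3 (0.971), Acot9 (0.969) and Pex5 (0.956), and most like Itgb1 were Tmem8c, the fusion protein myomaker, with Pnmal2 and Ncaph, each with r of 0.999 or more after rounding. Tmem8c went from 114 FPKM at E18.5 to 0.21 FPKM in the adult, so that likeness in course went with unlike size of change. These values describe 6 libraries that share age and cell make-up, and say nothing of shared function or control.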
